A study of Liolaemus parthenos with 3 samples.

Results

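DIRS and Ngaro elements are retrotransposons that move through a reverse transcriptase and join their DNA copy to the genome with a tyrosine recombinase. Gypsy, Copia and the endogenous retroviruses use an integrase for that step instead. Their ends differ too: DIRS elements carry inverted terminal repeats with an internal complementary region, and Ngaro elements, described from zebrafish, carry split direct repeats. Both are known from fishes, amphibians and reptiles, and full copies of either run to several kilobases. In the names used here they stand under the LTR order, as LTR/DIRS/DIRS and LTR/DIRS/Ngaro.

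The members were all assembled transcripts with either name that have values in the quantification files, 36 of the 480 there: 27 DIRS transcripts in 23 components and 9 Ngaro transcripts in 6 components. A component here is the assembler's gene-level unit, the transcript name without its final isoform number. The rows of both names in the table of 31 subfamilies were added. The samples were 3 RNA-seq libraries of total RNA, 1 each from the brain, ovary and liver of the same adult Liolaemus parthenos, a lizard that reproduces by parthenogenesis. All tissues came from 1 animal collected in the field, with no treatment named, so every ratio sets 1 library against another, no test between tissues is possible, and the spread between animals is unknown. The files list no genes, so the tissue labels could not be set against marker genes. Names conflict for the quantification files: the file attached to the ovary record is named for liver, and the reverse holds for the liver record. Libraries of these files are therefore called the ovary-record and the liver-record library after their record, and values of the table are given by its Brain, Ovary and Liver columns. If the files are exchanged against their records, each value given for one of them belongs to the other tissue.

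Reads totalled 5468656, 1143616 and 1717904 in the Brain, Ovary and Liver columns of the table. Quantification files were far smaller, with 16405 reads in brain, 4651 in the ovary-record library and 10644 in the liver-record library. Shares have exact Clopper-Pearson 95% intervals and ratios of shares exact conditional binomial 95% intervals, all for counting error only. A feature was called higher or lower when its shares differed at least 2-fold, the pair of libraries held at least 20 reads of it and the interval excluded 1. In bulk tissue, fewer cells of a type and less RNA per cell cannot be told apart, and reads of an element's own transcript and of a longer transcript that contains the element cannot be told apart either.

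In the subfamily table, DIRS held a large part of the LTR-order reads in every column and Ngaro a small part; the table gives no lengths, so these are reads and not levels per length. DIRS had 75165 (Brain), 32372 (Ovary) and 16238 reads (Liver column). It ranked 1 of the 12 LTR-order subfamilies in the Brain and Ovary columns and 2, behind ERV2, in the Liver column. Ngaro had 4795, 1670 and 1329 reads in the same order of columns and ranked 8, 9 and 7 of the 12. Its share of all reads was 0.0877% for Brain (95% interval 0.0852 to 0.0902), 0.146% for Ovary (0.139 to 0.153) and 0.0774% for Liver (0.0733 to 0.0816). Ngaro was thus highest in the Ovary column on this total, as was DIRS. Most reads of each column belonged to the non-LTR subfamily SINE3. Outside it there were 468883 of 5468656 reads (Brain), 255689 of 1143616 (Ovary) and 269830 of 1717904 (Liver).

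Within the LTR order the Brain column led instead. DIRS took 42.3% of LTR-order reads for Brain (42.1 to 42.5), 24.7% for Ovary (24.5 to 24.9) and 14.3% for Liver (14.1 to 14.5). Ngaro took 2.70% for Brain (2.62 to 2.78), 1.27% for Ovary (1.21 to 1.34) and 1.17% for Liver (1.11 to 1.24). The low shares in the Liver column stand beside 68760 reads of ERV2, an endogenous retrovirus group, which made up 60.6% of LTR-order reads there. With ERV2 left out of the total, a setting chosen after the data were seen, DIRS took 44.0% (Brain), 36.3% (Liver) and 25.6% (Ovary). Ngaro then took 2.80%, 2.97% and 1.32%, so the Ovary column was lowest for both. Brain over ovary was the only pair in which both totals of LTR-order reads gave nearly the same ratio, 1.71 and 1.72 for DIRS and 2.12 and 2.12 for Ngaro. ERV2 made up 3.73% of LTR-order reads for Brain and 3.64% for Ovary, so leaving it out could change little in that pair.

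**Figure D1:**
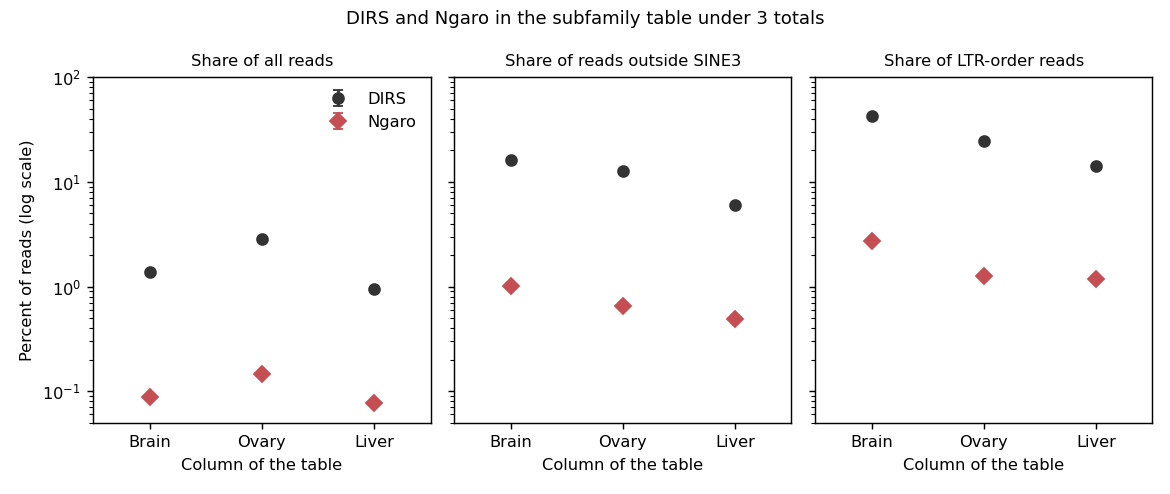
Percent of reads (log scale) of DIRS (circles) and Ngaro (diamonds) in the Brain, Ovary and Liver columns of the subfamily table, out of all reads, reads outside SINE3 and LTR-order reads; the 95% counting intervals are about as small as the symbols. Out of all reads the Ovary column is highest for both, with 2.83% for DIRS, while out of LTR-order reads the Brain column is highest, with 42.3%.

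The pairs of columns followed the same dependence on the total. Out of all reads, Ngaro in the Brain column was 1.67-fold below the Ovary column (1.57 to 1.76), but 1.57-fold above it outside SINE3 (1.48 to 1.66) and 2.12-fold above it among LTR-order reads (2.005 to 2.24). DIRS was 2.06-fold below it out of all reads (2.03 to 2.09), and 1.71-fold above it among LTR-order reads (1.69 to 1.74). By the rule, DIRS alone was called lower in the Brain column on all reads, where 48.4% of the 31 subfamilies were called lower and 3.23% higher. Among LTR-order reads, Ngaro was called higher and DIRS was not, where 16.7% of the 12 were called higher and 16.7% lower. Of the 8 other LTR-order subfamilies looked at (Gypsy, Copia, Pao, BEL, ERV, ERV1, ERV2 and ERV3), 0 were called higher and 2, Copia and ERV, lower in that setting. The other subfamily called higher there stands outside these 8 and was named after its values were seen: CER8-I_CE, with 23 reads in the Brain and 6 in the Ovary column.

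Between the Brain and Liver columns, Ngaro was 1.13-fold higher out of all reads (1.07 to 1.21), 2.08-fold outside SINE3 (1.95 to 2.21) and 2.304-fold among LTR-order reads (2.17 to 2.45). For DIRS the ratios were 1.45 (1.43 to 1.48), 2.66 (2.62 to 2.71) and 2.96 (2.91 to 3.01). Neither was called on all reads, where 19.4% of subfamilies were called higher and 19.4% lower in the Brain column. Both were called higher among LTR-order reads, as were 58.3% of the 12 (8.33% were lower), which include Gypsy, Pao, ERV and ERV3. Without ERV2 in that total the ratios dropped to 1.21 for DIRS (1.19 to 1.23) and 0.943 for Ngaro (0.887 to 1.003), an interval that includes 1.

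Between the Ovary and Liver columns, DIRS was 2.99-fold higher out of all reads (2.94 to 3.05) and Ngaro 1.89-fold higher (1.76 to 2.03). DIRS alone was called, with 54.8% of the 31 subfamilies called higher and 3.23% lower in the Ovary column. Among LTR-order reads neither was called, with 33.3% of the 12 higher and 8.33% lower, and Ngaro was 1.09-fold higher (1.01 to 1.17). Without ERV2 in the total both turned, with DIRS 1.42-fold lower (1.39 to 1.45) and Ngaro 2.25-fold lower (2.09 to 2.42) in the Ovary column.

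Other scalings of the columns moved these ratios too, here on the log2 scale. For DIRS, ovary over liver was 1.58 on all reads but 0.10 when scaled by TMM, 0.29 by median-of-ratios factors and -0.26 in the deposited log2 CPM. For Ngaro it turned from 0.92 to -0.56, -0.38 and -0.71 in the same order. Brain over ovary of DIRS went from -1.04 to -0.013, -0.16 and 0.70, and that of Ngaro from -0.74 to 0.29, 0.15 and 0.34. Brain over liver went from 0.54 to 0.089, 0.13 and 0.43 for DIRS and from 0.18 to -0.27, -0.23 and -0.36 for Ngaro.

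The ratio of Ngaro to DIRS reads within a column does not depend on the total. There were 6.38 Ngaro reads per 100 DIRS reads for Brain (6.19 to 6.57), 5.16 for Ovary (4.91 to 5.42) and 8.18 for Liver (7.73 to 8.66). The 3 intervals did not overlap, and the Liver column was highest. The deposited log2 CPM gave other ratios, 4.95 for Brain, 6.32 for Ovary and 8.61 for Liver, with the Brain column lowest in place of the Ovary column. These deposited values are therefore no mere rescaling of the counts by column: the CPM they stand for came to 0.267 per read for DIRS and 0.207 for Ngaro in the Brain column. Over all 27 subfamilies of that table, it ran from 0.107 to 0.473 in the same column. The deposited log2 CPM of DIRS was 14.29 in Brain, 13.59 in Ovary and 13.86 in Liver, and that of Ngaro 9.96, 9.61 and 10.32. Among the 9 LTR-order subfamilies with such values, DIRS ranked 1, 3 and 2 and Ngaro 8, 8 and 7 in the same order. The first rank of DIRS by reads in the Ovary column thus did not hold by log2 CPM.

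The quantification files showed a different balance. Ngaro had 425 reads against 462 of DIRS in brain, 66 against 73 in the ovary-record library and 78 against 144 in the liver-record library. That is 92.0 Ngaro reads per 100 DIRS reads in brain (80.4 to 105.2), 90.4 in the ovary-record library (63.8 to 127.9) and 54.2 in the liver-record library (40.6 to 71.8). Per length, as TPM, the ratios were 49.1, 60.5 and 25.0. The list of names deposited by the authors gives DIRS to 4314 assembled transcripts and Ngaro to 226. The files hold 27 of the former (0.626%) and 9 of the latter (3.98%), against 2.49% of all 19207 transcripts of the list. No component of that list mixed either name with another name, 0 of the 3067 DIRS and 0 of the 130 Ngaro components. Without the 5 transcripts of the Ngaro group TRINITY_DN19128, 10.96, 19.2 and 2.08 Ngaro reads remained per 100 DIRS reads.

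**Figure D2:**
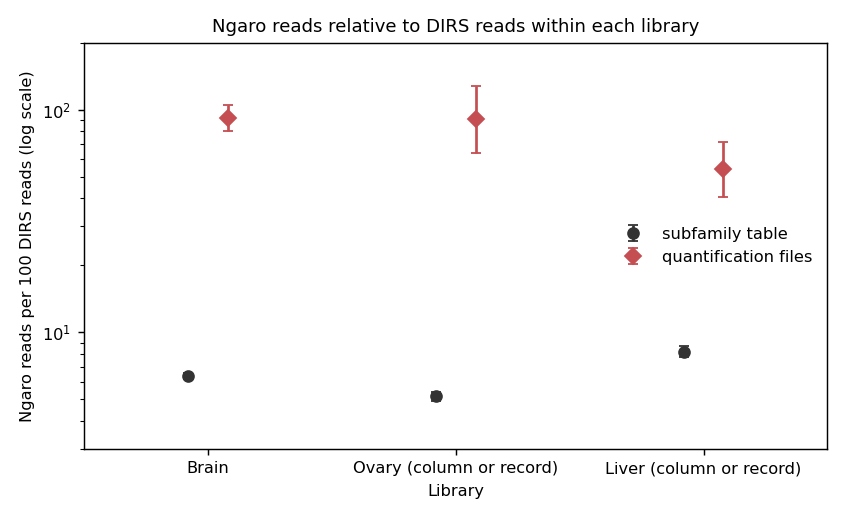
Ngaro reads per 100 DIRS reads (log scale) in each library, from the subfamily table (circles) and from the quantification files (diamonds), with 95% counting intervals; ovary and liver stand for the column in the table and for the sample record in the files. All 3 values from the table lie between 5.16 and 8.18, and those from the files between 54.2 and 92.0.

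Together the 36 transcripts took 5.41% of the reads in brain (5.07 to 5.76), 2.99% in the ovary-record library (2.52 to 3.52) and 2.09% in the liver-record library (1.82 to 2.38). Brain was highest for both names. DIRS took 2.82% in brain (2.57 to 3.08), 1.57% in the ovary-record library (1.23 to 1.97) and 1.35% in the liver-record library (1.14 to 1.59). Ngaro took 2.59% (2.35 to 2.85), 1.42% (1.10 to 1.80) and 0.733% (0.580 to 0.914) in the same order. Ratios for brain over the ovary-record library were 1.79 for DIRS (1.40 to 2.33) and 1.83 for Ngaro (1.41 to 2.40). Against the liver-record library they were 2.08 (1.72 to 2.53) and 3.54 (2.77 to 4.56). As summed TPM, brain over the liver-record library was 1.10 for DIRS and 2.17 for Ngaro. TPM also sets another total for each library, and ratios of single transcripts moved too, by unlike factors. For TRINITY_DN94046_c0_g1_i1, a brain share 3.68-fold that of the liver-record library stood beside TPM of 4313 and 2056. What moved these ratios besides the total was not tested. The brain share of TRINITY_DN34420_c0_g1_i19 was 1.68-fold that of the liver-record library, while its TPM was 1334 in brain and 1239 there. How much of the drop for DIRS comes from length was not tested. Between the ovary-record and liver-record libraries, the DIRS ratio of 1.16 had an interval that included 1 (0.863 to 1.55), while Ngaro was 1.94-fold higher in the former (1.37 to 2.72). That Ngaro ratio, 0.95 on the log2 scale, became 0.27 with TMM factors and turned to -0.41 without the component with most Ngaro reads. Without the whole cluster TRINITY_DN19128 it was 10.7-fold (2.98 to 58.0), on 14 reads against 3. With TMM factors, brain over the liver-record library dropped to 0.29 (log2) for DIRS and 1.05 for Ngaro. The 19 other LTR-order transcripts of the files were lowest in brain, with 27.6% of reads there, 32.3% in the ovary-record library and 39.3% in the liver-record library. As TPM they took 3.43%, 24.3% and 7.84%, so the order of the last pair turned with that measure. In each library 1 endogenous retrovirus transcript held a large part of these reads, with 22.2%, 26.1% and 15.1% of all reads of the file. Its name was ERV3 in brain, ERV2 in the ovary-record library and ERV3 in the liver-record library. Out of all reads of the subfamily table, the ratio of Ovary to Liver was 0.104 for ERV2 (0.101 to 0.107). For ERV3 that ratio was 19.9 (18.5 to 21.5). The leading ERV3 transcript of the liver-record library had 1612 reads there, more than the 723 of all ERV3 in the Liver column. The Ovary column had 9592 reads of ERV3. The leading ERV2 transcript of the ovary-record library had 1214 reads, fewer than all ERV2 in the Ovary (4775) or Liver column (68760). Whether the files are exchanged against their records was not tested.

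All 36 transcripts were shorter than full copies of such elements. Their lengths ran from 208 to 1779 bases with a median of 499.5, against a median of 276 for the 444 other transcripts. The 9 Ngaro transcripts had a median of 952 bases and the 27 DIRS transcripts of 391. Transcripts over 900 bases made up 33.3% of the 36 and 8.13% of all 480. They held 73.6% of the members' reads and 66.9% of the reads of all 480. At least 20 reads over the 3 libraries were found for 15 of the 36, 9 DIRS and 6 Ngaro, against 32.3% of all 480 transcripts. At least 1 read was found for 33 members in brain, 23 in the ovary-record library and 24 in the liver-record library, or 91.7%, 63.9% and 66.7%. Of all 480 transcripts, 445 (92.7%), 262 (54.6%) and 288 had at least 1 read. Thinned to 4651 reads per library, 28.7 members (79.8%) would be expected in brain and 20.7 (57.6%) in the liver-record library, against 78.0% and 47.1% of all transcripts. A read in every library was found for 17 members, or 47.2%, against 38.8% of all transcripts. The median TPM over the 36 was 779 in brain, 359 in the ovary-record library and 429 in the liver-record library, against 1133, 381 and 517 over all 480.

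**Figure D3:**
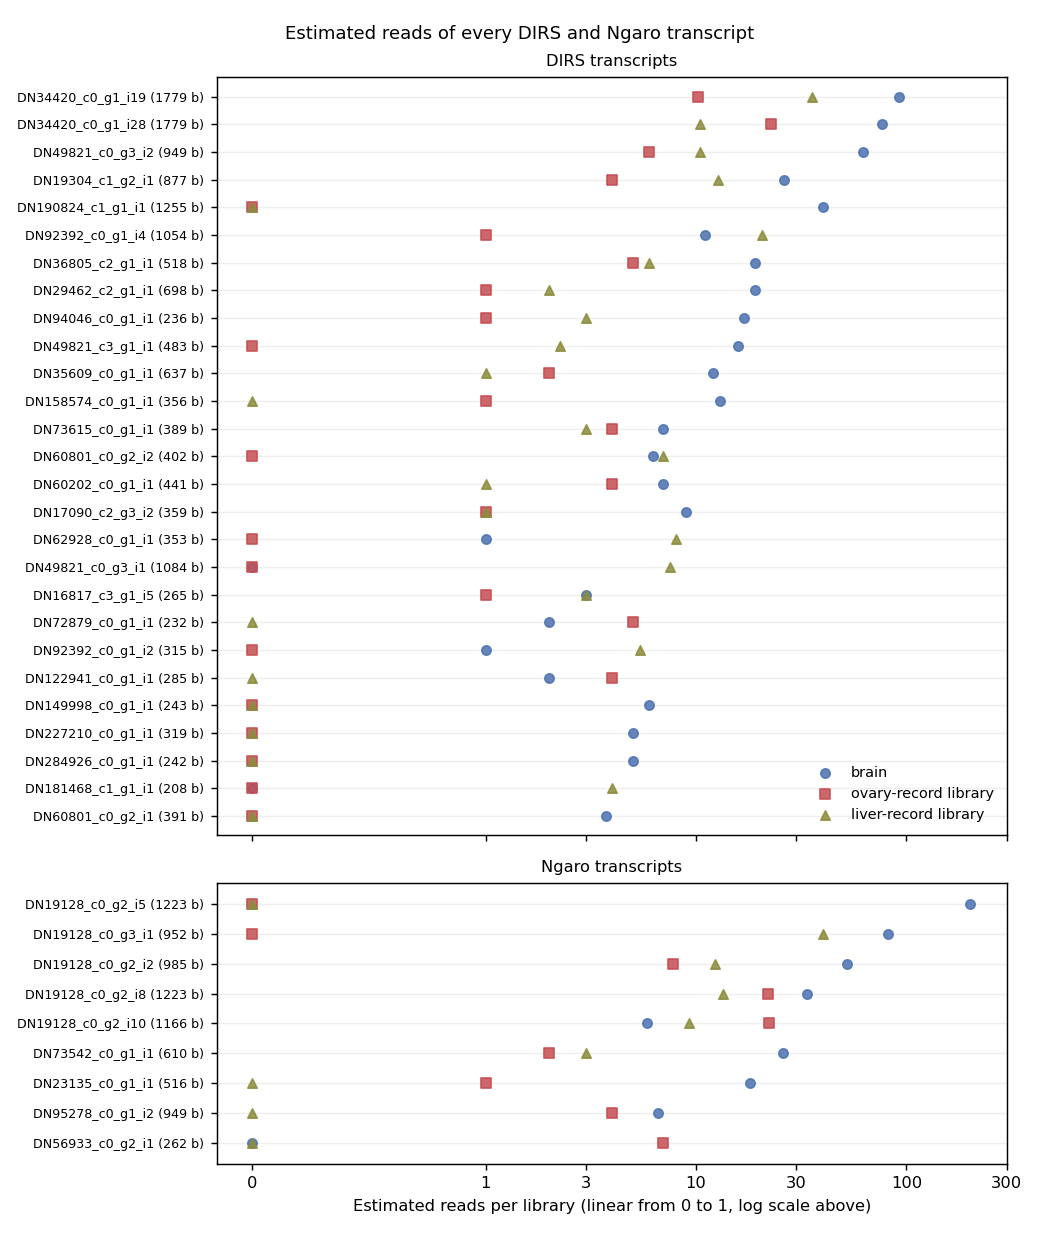
Estimated reads of each of the 27 DIRS (upper panel) and 9 Ngaro transcripts (lower panel) in brain (circles), the ovary-record library (squares) and the liver-record library (triangles), on an axis that is linear from 0 to 1 and logarithmic above; lengths in bases stand in parentheses and names lack their common prefix TRINITY_. Markers overlap at 0. Brain lies farthest right for most transcripts, with TRINITY_DN19128_c0_g2_i5 at 201 reads against 0 in both others. Reads are not scaled to the library totals of 16405, 4651 and 10644, of which brain has the largest. By share of reads, 15 of the 27 DIRS and 5 of the 9 Ngaro transcripts were highest in brain, against 62.6% of all transcripts with any read.

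Most Ngaro reads came from a single assembled cluster, TRINITY_DN19128, with its components c0_g2 and c0_g3. The component TRINITY_DN19128_c0_g2 had 293 reads in brain, 52 in the ovary-record library and 35 in the liver-record library. That was 68.9% of Ngaro reads in brain (64.3 to 73.3) and 78.8% in the ovary-record library (67.0 to 87.9). Its brain share was 1.60-fold that of the ovary-record library (1.19 to 2.19) and 5.43-fold that of the liver-record library (3.82 to 7.95). It was 3.40-fold higher in the ovary-record library than in the liver-record library (2.17 to 5.38), and the latter was thus lowest.

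Not all isoforms of this component shared that pattern. TRINITY_DN19128_c0_g2_i5, 1223 bases long, had 201 reads in brain and 0 in both others. It was the Ngaro transcript with most reads in brain. With a floor of 3 reads per library in place of 0, and the reads in brain taken as they stand, it was at least 19.0-fold higher there than in the ovary-record library and at least 43.5-fold higher than in the liver-record library. The intervals, which count the error of the brain reads too, start at 15.3 and 35.0. How reads were divided among the isoforms is covered by neither. TRINITY_DN19128_c0_g2_i8, of the same length, had 33.8 reads in brain, 22.0 in the ovary-record library and 13.4 in the liver-record library. TRINITY_DN19128_c0_g2_i10 had 5.86, 22.3 and 9.31, and was 13.4-fold lower in brain than in the ovary-record library (5.09 to 39.0). TRINITY_DN19128_c0_g2_i2 had 52.3, 7.74 and 12.3, and its shares of 0.319%, 0.166% and 0.115% stood in the order of the component. The interval of its ratio for brain over the ovary-record library (0.869 to 4.49) included 1. As parts of the component, i5 took 68.6% of reads in brain, while i8 and i10 took 42.2% and 42.9% in the ovary-record library. In the liver-record library i8 led with 38.3%, followed by i2 with 35.1% and i10 with 26.6%. The list of names holds 8 isoforms of this component, and the files 4 of them.

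The other component of the cluster differed from its neighbour in the ovary-record library. TRINITY_DN19128_c0_g3_i1, its only transcript, had 81.4 reads in brain, 0 in the ovary-record library and 40 in the liver-record library, where it led the Ngaro transcripts. For 0 among 4651 reads, the floor of 3 reads is a share of 0.0645%, and the exact interval ends at 0.0793%. With that floor the share was at least 7.69-fold higher in brain and at least 5.83-fold higher in the liver-record library than in that recorded as ovary, and the intervals of these ratios start at 6.08 and 4.52. Between brain and the liver-record library the ratio was 1.32 (0.889 to 1.97). Its 81.4 brain reads and the 6.63 of TRINITY_DN95278_c0_g1_i2, a Ngaro transcript of nearly the same length, sum to 88.0, so reads were divided between them. Summed, the pair had 88, 4 and 40 reads, had a brain share 6.24-fold that of the ovary-record library (2.35 to 23.4) and was 4.37-fold lower in the latter than in the liver-record library (1.58 to 16.8).

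The remaining Ngaro transcripts were weaker. TRINITY_DN73542_c0_g1_i1 had 26 reads in brain, 2 in the ovary-record library and 3 in the liver-record library. Its brain share was 5.62-fold that of the last (1.72 to 29.0), while the interval against the ovary-record library (0.923 to 32.0) included 1. TRINITY_DN23135_c0_g1_i1 had 18, 1 and 0 reads. TRINITY_DN56933_c0_g2_i1, of 262 bases, was the only member with reads in the ovary-record library alone, 7 against 0 and 0.

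**Figure D4:**
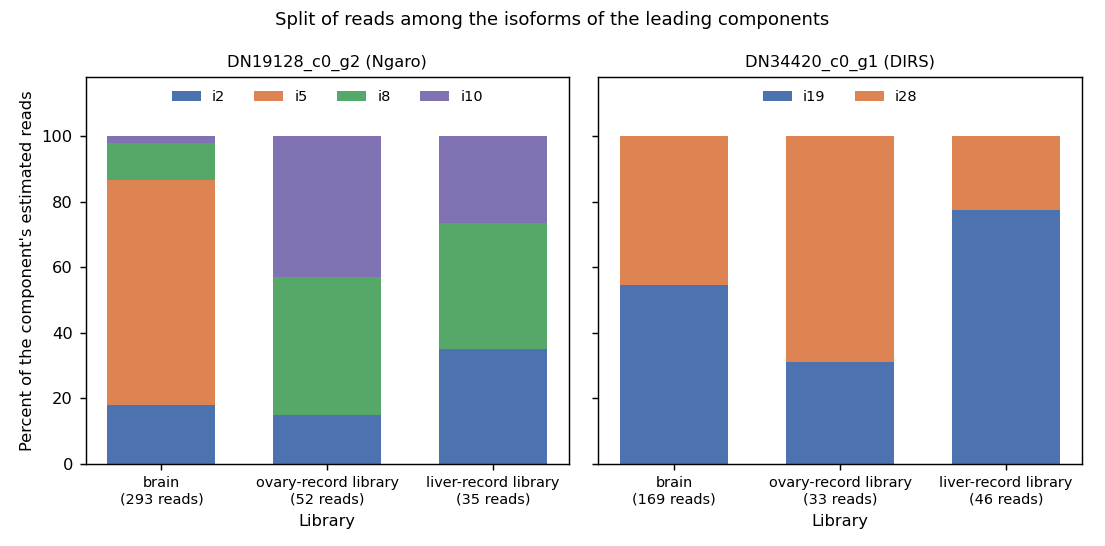
Percent of a component's estimated reads given to each isoform (stacked colours) in the 3 libraries, for the leading Ngaro component (left, 293, 52 and 35 reads) and the leading DIRS component (right, 169, 33 and 46 reads). The isoform i5 takes 68.6% of the Ngaro component in brain and 0 in the other libraries, and i19 of the DIRS component takes 54.6%, 31.1% and 77.4%.

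DIRS reads were spread over more components. The leading one in all 3 libraries, TRINITY_DN34420_c0_g1, had 169 reads in brain, 33 in the ovary-record library and 46 in the liver-record library. These were 36.6%, 45.2% and 31.9% of DIRS reads, with intervals that overlapped. Its brain share was 2.38-fold that of the liver-record library (1.71 to 3.38), and the ratio to the ovary-record library was 1.45 (0.995 to 2.18). It holds the longest members, TRINITY_DN34420_c0_g1_i19 and TRINITY_DN34420_c0_g1_i28, each of 1779 bases. The former had 92.3 reads in brain, 10.3 in the ovary-record library and 35.6 in the liver-record library. The latter had 76.7, 22.7 and 10.4. The balance of these 2 isoforms thus turned between libraries. In brain and in the liver-record library i19 was ahead, and in the ovary-record library i28. The list of names holds 11 isoforms of this component, and the files 2 of them. The share of i28 was 5.001-fold higher in the ovary-record library than in the liver-record library (2.41 to 12.4). For i19 and i28 summed, the share was 1.64-fold higher in that pair (1.02 to 2.62).

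Among the other DIRS components, TRINITY_DN190824_c1_g1 stood apart with 40 reads in brain and 0 in both others, on a single transcript of 1255 bases. With the floor of 3 reads, its share in brain was at least 3.78-fold that of the ovary-record library and at least 8.65-fold that of the liver-record library, and the intervals of these ratios start at 2.93 and 6.72. TRINITY_DN92392_c0_g1 went the other way, with 12 reads in brain, 1 in the ovary-record library and 26 in the liver-record library. It was 3.34-fold lower in brain than in the liver-record library (1.63 to 7.27) and 11.4-fold lower in the ovary-record library than there (1.87 to 466), the latter resting on 1 read. No other member component was called higher in the liver-record library than in brain.

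TRINITY_DN49821_c0_g3 had 62, 6 and 18 reads, and its brain share was 2.93-fold that of the ovary-record library (1.27 to 8.29) and 2.23-fold that of the liver-record library (1.30 to 4.01). Its shorter isoform i2 held all reads in brain and in the ovary-record library, while the longer i1, of 1084 bases, took 7.56 of the 18 reads in the liver-record library. TRINITY_DN19304_c1_g2_i1 had 26.1, 4 and 12.7 reads, and TRINITY_DN49821_c3_g1_i1 had 15.9, 0 and 2.27. These sum to whole numbers in each library, 42, 4 and 15, so the pair shared reads although the assembler kept it in separate clusters. Together their brain share was 2.98-fold that of the ovary-record library (1.08 to 11.4), and the interval of the ratio to the liver-record library (0.987 to 3.53) included 1.

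Smaller DIRS components with at least 20 reads were TRINITY_DN36805_c2_g1 with 19, 5 and 6 reads, TRINITY_DN29462_c2_g1 with 19, 1 and 2, and TRINITY_DN94046_c0_g1 with 17, 1 and 3. The first showed no difference beyond its counting interval in any pair. The others were 6.16-fold (1.49 to 54.6) and 3.68-fold higher (1.06 to 19.6) in brain than in the liver-record library. The other 18 DIRS transcripts had 3.75 to 18.1 reads each over the 3 libraries and never more than 15.9 in any library. By share of reads, 8 of these 18 were highest in brain, 4 in the ovary-record library and 6 in the liver-record library. Over all 27 DIRS transcripts these numbers were 15, 5 and 7, and over the 9 Ngaro transcripts 5, 4 and 0. Of the 473 transcripts of the files with any read, 62.6%, 21.8% and 15.6% were highest in these libraries.

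The divided reads followed component borders closely. Of the 36 transcripts, 16 had a value more than 0.01 away from a whole number in at least 1 library. Of the 29 components 4 did, and these were the 2 pairs named above, whose sums were whole. The divided reads thus added up to whole reads among the members themselves, within this tolerance. Values of single isoforms carry the uncertainty of that division, which the intervals do not cover. Sums over the other components and over the 2 pairs were whole. TRINITY_DN19128_c0_g3 and TRINITY_DN95278_c0_g1 shared reads in brain, yet had whole values of 40 and 0 in the liver-record library. Whole values thus do not show that no reads were shared.

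**Figure D5:**
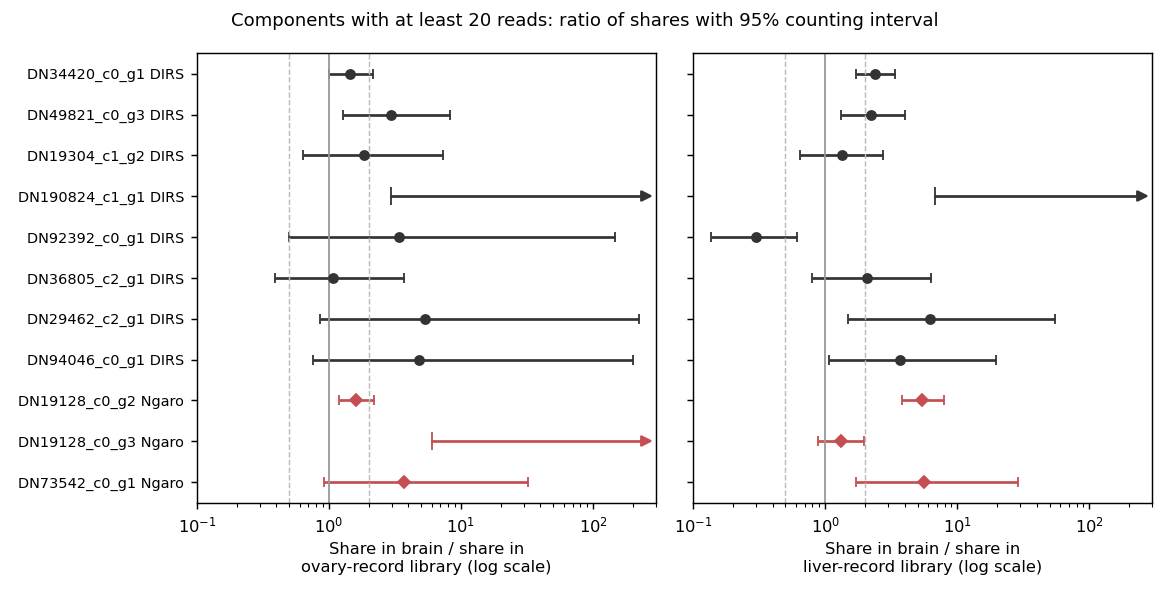
Ratio of the share of reads in brain to that in the ovary-record library (left) and the liver-record library (right), on log axes with 95% counting intervals, for the 11 components with at least 20 reads over the 3 libraries (DIRS black circles, Ngaro red diamonds). Arrows start at the lower interval bound where the other library had 0 reads; the solid line marks a ratio of 1 and dashed lines the fold of 2. TRINITY_DN92392_c0_g1, at 0.299, is the only component left of 1 on the right.

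By transcript, 5 of the 36 members were called higher and 2 lower in brain than in the ovary-record library, or 13.9% and 5.56%. Over all 480 transcripts, 9.58% were called higher and 2.71% lower. Against the liver-record library, 8 members were higher in brain (22.2%) and 1 lower (2.78%), with 14.4% and 4.58% over all transcripts. Between the ovary-record and liver-record libraries, 3 members were higher and 2 lower in the former (8.33% and 5.56%), with 4.38% and 4.38% over all. The members reached the minimum of 20 reads more often, 36.1%, 38.9% and 19.4% of them in these 3 pairs, against 24.6%, 28.1% and 12.7% of all transcripts. Calls were thus possible for a larger part of the members, and their shares of calls do not set them apart.

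By component, 3 of 29 were higher and 0 lower in brain than in the ovary-record library, with 9.57% and 1.67% of all 418 components. The 3 were TRINITY_DN190824_c1_g1, TRINITY_DN19128_c0_g3 and TRINITY_DN49821_c0_g3. Against the liver-record library, 7 were higher (24.1%) and 1 lower (3.45%), with 14.8% and 3.35% of all. Between the ovary-record and liver-record libraries, TRINITY_DN19128_c0_g2 was higher and TRINITY_DN19128_c0_g3 and TRINITY_DN92392_c0_g1 were lower in the former, with 4.07% and 3.35% of all components. The minimum of 20 reads was reached by 31.0%, 37.9% and 17.2% of the 29 in these 3 pairs, against 23.4%, 26.6% and 10.8% of all. Calls were thus possible for a larger part of the member components too. Higher in brain than in both others were TRINITY_DN190824_c1_g1 and TRINITY_DN49821_c0_g3, 6.90% of the 29, against 8.37% of all components. These 2 calls hold whichever of the other libraries is ovary or liver. By TPM, TRINITY_DN49821_c0_g3 had 1709 in brain and 1154 in the liver-record library, under the fold of 2, so its call in that pair ended. For this component, the change of library total and the lengths used for TPM were not told apart. Its isoform i2, of 949 bases, had a brain share 3.85-fold that of the liver-record library, and a TPM of 1709 against 713. By a TPM ratio of at least 2 on at least 20 reads, 5 components were higher in brain than in the liver-record library. This count used no interval, unlike the 7 called by share.

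Per length, the order of the members changed. In brain, TRINITY_DN19128_c0_g2_i5 had the highest TPM, 4383 on 201 reads and 1223 bases. It was closely followed by TRINITY_DN94046_c0_g1_i1, a DIRS piece of 236 bases, with 4313 on 17 reads. These TPM were not in proportion to reads over the lengths given here. The length by which TPM was scaled was not examined. The highest TPM in the ovary-record library was that of TRINITY_DN56933_c0_g2_i1, 4961 on 7 reads. In the liver-record library it was that of TRINITY_DN181468_c1_g1_i1, a DIRS piece of 208 bases, 3641 on 4 reads, with TRINITY_DN19128_c0_g3_i1 at 2921 on 40 reads. Levels per length of the shortest members thus rest on few reads. By TPM, 15 of the 27 DIRS transcripts were highest in brain, 4 in the ovary-record library and 8 in the liver-record library, and of the 9 Ngaro transcripts 4, 4 and 1. Over the same 473 transcripts, 58.6%, 18.6% and 22.8% were.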

How the data were processed

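The authors deposited estimated counts per subfamily, a log2 CPM table for some of these subfamilies, and per sample estimated counts and TPM of assembled transcripts, in Salmon's column layout per the file headers. Bowtie2 2.3.4.1 is named without a role in the submitters' processing notes. The assembler, the annotation, the scaling of the log2 CPM table and the log base, here read as 2 from the values, are not stated by the sources at hand. Element names come from a list deposited by the authors, which holds names and no other measurement. Sequences of the transcripts were not used here.

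Members were selected by name, and counts were summed by component. Shares and ratios used the estimated counts, and intervals (SciPy 1.17.1) and TMM factors these counts rounded to whole reads. A ratio against 0 reads used a floor of 3 reads. TMM factors came from edgeR 4.0.16. Other totals, scalings, read minimums, folds and TPM were tried as alternatives. The files turned out to cover few of the reads of the table, so both were kept apart. Named transcripts are those with at least 20 reads in all, those called in any pair and the longest; the few others named were chosen after their values were seen. The members, lists and tests were chosen with earlier results of these data known. Without molecular identifiers, reads are not independent molecules, so intervals cover counting error only.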

Additional observations from a re-analysis of the deposited data

How the results depend on the processing

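No paired analysis was possible because each tissue has 1 library. Values here are log2 ratios of shares. In the subfamily table, 36 alternative values were computed and 20 turned direction. For DIRS, brain over ovary (-1.04) became 0.34 outside SINE3, -0.013 with TMM factors, -0.16 with median-of-ratios factors, 0.70 in the deposited log2 CPM, 0.78 among LTR-order reads and 0.78 among these without ERV2. In the same order, its brain over liver (0.54) became 1.41, 0.089, 0.13, 0.43, 1.56 and 0.27, and its ovary over liver (1.58) became 1.07, 0.10, 0.29, -0.26, 0.79 and -0.50. For Ngaro, brain over ovary (-0.74) became 0.65, 0.29, 0.15, 0.34, 1.08 and 1.09. Its brain over liver (0.18) became 1.05, -0.27, -0.23, -0.36, 1.20 and -0.085, and its ovary over liver (0.92) became 0.41, -0.56, -0.38, -0.71, 0.12 and -1.17. The alternative without ERV2 was chosen after seeing the data.

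In the quantification files, where ovary and liver stand for the sample records, 13 of 24 alternative values stayed within the interval. As TPM, DIRS came to 0.14 (brain over liver) and -0.45 (ovary over liver). Ngaro came to 0.30 (brain over ovary) and 1.11 (brain over liver). With TMM factors, DIRS came to 0.29 (brain over liver) and -0.47 (ovary over liver), while Ngaro came to 1.05 and 0.27 in these pairs. Without its leading component TRINITY_DN19128_c0_g2, Ngaro came to 1.43, 1.02 and -0.41 for the 3 pairs in the order used above, so ovary over liver turned. Leaving out the top transcripts of the libraries kept all 6 ratios within their intervals.

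Of the counts of called transcripts, 17 of 24 alternative values stayed within 1.5 times. A fold of 3 left 3 transcripts higher and 1 lower in brain than ovary, and 0 lower in brain than liver. TPM ratios were counted at a fold of 2 on at least 20 reads, without the interval of the rule. Counted so, 8 were higher in brain than ovary. Without a minimum of reads, 5 were lower in brain than ovary, 4 lower in brain than liver and 7 higher in ovary than liver. For components, 17 of 24 stayed as well. With TPM ratios, again without the interval, 5 were higher in brain than ovary and 0 higher in ovary than liver. Among the 5 were TRINITY_DN29462_c2_g1 and TRINITY_DN73542_c0_g1, whose share ratios had intervals that included 1. Without a minimum, 3 were lower in brain than ovary, 11 higher and 3 lower in brain than liver and 5 higher in ovary than liver; a minimum of 10 reads gave 11 higher in brain than liver too. With at least 5 reads in place of 1, members detected dropped to 9 in the ovary-record library and 14 in the liver-record library. Causes were not tested.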
